A study of Homo sapiens with 2 samples.

Results

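HOX genes encode homeodomain transcription factors and lie in 4 clusters, HOXA on chromosome 7, HOXB on chromosome 17, HOXC on chromosome 12 and HOXD on chromosome 2. They were measured in SW620 cells, an established line of human colon carcinoma, on 2 single-colour arrays. The members were all probes annotated to a gene of these clusters by cluster letter and paralog number, with 1 gene left out by that rule. This gave 33 probes of 28 genes, among 18638 genes with a symbol on the array. They comprised HOXA2, 9 genes of HOXB (paralogs 1 to 9), 9 of HOXC (4, 5, 6 and 8 to 13) and 9 of HOXD (1, 3, 4 and 8 to 13). The other HOXA genes were not analysed here.

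The control array held RNA of SW620 cells carrying a control lentivirus. The other array held RNA of SW620 cells expressing CDR1AS, a circular RNA made from the strand opposite CDR1. Both cultures grew in DMEM with 10% FBS. The labels do not give the vector or promoter behind CDR1AS, a control insert, or whether either culture was 1 clone. Each group was 1 array, so every difference below is between 2 arrays, with no replicate error, no test and no p-value.

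Genes of like position in the 4 clusters share a paralog number. During development, low numbers are switched on early and towards the head, and high numbers later and towards the tail, and cells keep part of this code as a memory of their position. The hindgut, from which most of the colon forms, lies in the range of the high numbers. HOX proteins bind DNA with TALE partners such as PBX and MEIS proteins. Polycomb proteins keep unused HOX genes silent, trithorax proteins keep used ones active, and retinoic acid switches on the low-numbered end.

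Starts of 3 HOX transcripts are shown because they mark how separate the members are and what their promoters share. RefSeq (GRCh38.p14) held a promoter window, 250 bases before to 50 after the start, for 12 of the 28 genes. HOXC4 and HOXC5 had the same window, so that their annotated transcripts begin at 1 place. HOXD1 had the most CpG pairs of the 12 windows, and HOXD12 was the member whose spot on the control array lay farthest under the limit of detection. CG pairs, the letters searched on 1 strand since the pair reads the same on both, are in capitals.
HOXC4 and HOXC5 (chr12:54016638-54016937, plus strand): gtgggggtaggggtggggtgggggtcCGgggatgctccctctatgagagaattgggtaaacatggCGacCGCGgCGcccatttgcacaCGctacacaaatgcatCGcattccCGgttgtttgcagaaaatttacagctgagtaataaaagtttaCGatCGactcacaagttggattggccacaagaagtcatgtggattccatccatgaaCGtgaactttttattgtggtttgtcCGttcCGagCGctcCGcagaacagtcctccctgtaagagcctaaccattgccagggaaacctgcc
HOXD1 (chr2:176188418-176188717, plus strand): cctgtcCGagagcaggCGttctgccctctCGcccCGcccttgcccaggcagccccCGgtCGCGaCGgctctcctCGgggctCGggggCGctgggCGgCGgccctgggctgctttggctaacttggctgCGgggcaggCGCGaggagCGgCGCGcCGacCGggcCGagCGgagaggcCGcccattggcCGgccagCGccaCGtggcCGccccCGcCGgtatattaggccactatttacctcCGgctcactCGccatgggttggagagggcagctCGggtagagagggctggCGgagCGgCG
HOXD12 (chr2:176099545-176099844, plus strand): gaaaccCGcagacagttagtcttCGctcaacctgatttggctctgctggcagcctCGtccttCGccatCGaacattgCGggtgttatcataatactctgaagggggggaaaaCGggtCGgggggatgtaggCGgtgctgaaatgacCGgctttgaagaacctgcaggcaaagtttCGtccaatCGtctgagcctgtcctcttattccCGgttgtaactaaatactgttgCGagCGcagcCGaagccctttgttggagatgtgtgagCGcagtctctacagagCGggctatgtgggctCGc
The window of HOXD1 held 36 CpG pairs, a number reached by 12.7% of all 35116 windows of 300 bases. That of HOXD12 held 19 (42.9% of windows held at least as many) and that of HOXC4 and HOXC5 15 (48.9%). Over the windows of the 12 genes the number ran from 4 for HOXD4 to 36 with a median of 21, beside a median of 14 over all windows. The TATA motif TATAAA, searched on both strands with no other motif, stood in 1 of the 12, that of HOXD13, and in 11.5% of all windows. These are descriptions of the letters in each window, and methylation and binding there were not analysed here.

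A spot counted as above the blanks where its intensity was more than 2 SD over the mean of the 384 blank spots of its array, which set the limits at 69.1 (control) and 72.1 (CDR1AS) scanner units. A gene was read by its brightest probe. By this rule 26 of 28 HOX genes were above the blanks with control RNA and 28 of 28 with CDR1AS RNA, against 86.2% and 88.7% of all genes on the array, so that being above the blanks was common to most probes. The limit is lenient: 4 of the 96 negative control spots passed it on the control and 20 of 96 on the CDR1AS array. At 1.5 times the limit on both arrays, 14 of 28 HOX genes remained, a share close to the 52.0% of all genes. Intensities of different probes depend on their own sequences, so the order of genes by intensity is not read as an order of expression.

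Members well clear of the blanks were counted by cluster. In HOXB 7 of 9 genes were at 1.5 times the limit or more on both arrays, in HOXC 5 of 9 and in HOXD 2 of 9. HOXA2, a regulator of hindbrain and branchial arch patterning, was close to the blanks, at 76.4 and 83.4. By paralog number, 4 of 9 genes of groups 1 to 4, 5 of 8 of groups 5 to 8 and 5 of 11 of groups 9 to 13 reached that level. The share of all genes at that level was 52.0%, which the counts of HOXC and of the paralog groups lay near, and HOXB, HOXC and HOXD had only 9 genes each. By the limit itself, 9 of 9 genes of HOXB, 9 of 9 of HOXC and 7 of 9 of HOXD were above the blanks on both arrays.

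**Figure D1:**
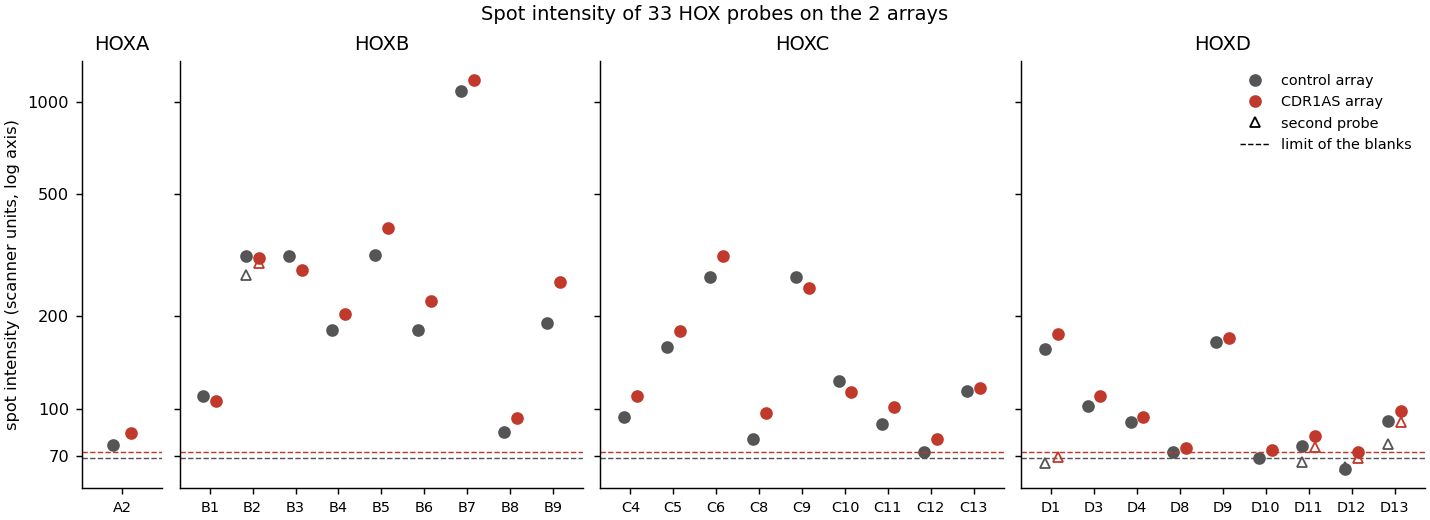
Spot intensity (log axis, scanner units) of the 33 HOX probes on the control array (grey) and the CDR1AS array (red), by cluster and paralog number, with the limit of the blanks of each array as a dashed line and the dimmer probe of a gene as an open triangle. The grey and red points of each probe lie close together, most of the HOXB points stand clear of both lines, and most HOXD points lie near them.

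Between the arrays the HOX genes differed little. No member was past 2-fold in either direction, where 0.755% of the 16685 measured genes were at least 2-fold higher on the CDR1AS array and 0.575% at least 2-fold lower. A count of 0 of 28 is close to so low a background and is not read as a result about HOX genes. The log2 ratio (CDR1AS minus control, after normalization) ran from −0.28 for HOXB3 to 0.35 for HOXB9. The median was 0.04, with 18 genes above 0 and 10 below, but −0.05 with 8 above and 20 below after subtraction of the local background. Over all measured genes the median was −0.0044 and the SD 0.29, with 8105 above 0 and 8569 below. Of them 6.57% had an absolute log2 ratio of 0.5 or more, which no HOX gene had. Repeated spots of the positive controls within an array had an SD of up to 0.24 on the log2 scale before normalization. In absolute size 4 of the 28 ratios exceeded that number (HOXB3, HOXB9, HOXC9 and HOXC10). That SD is of single bright spots on 1 array and does not measure the spread of a ratio between 2 arrays. Between the arrays, the median spot of Positive Control 2 was 7444 on the control and 10962 on the CDR1AS array, and that of Positive Control 1 was 40354 and 43384.5.

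**Figure D2:**
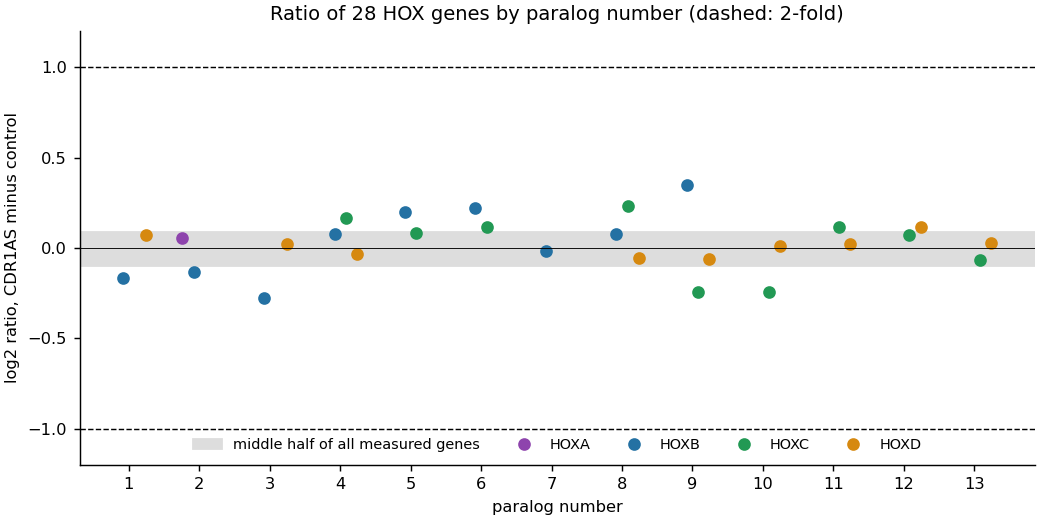
Log2 ratio (CDR1AS minus control) of each of the 28 HOX genes against its paralog number, coloured by cluster, with the range between the quartiles of all measured genes in grey and 2-fold as dashed lines. All points lie between −0.28 and 0.35, inside the dashed lines, and HOXD points lie closest to 0.

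In HOXB, the genes of the low-numbered end had ratios below 0 and most of the others above. HOXB1, a hindbrain gene, had a spot of 110 on the control and 106 on the CDR1AS array (log2 ratio −0.17). HOXB2 had 313 and 309 (−0.13), and its other probe 273 and 298 (0.00). HOXB3 had 314 and 282 (−0.28). Both HOXB2 probes thus lay near 0, and they differed from each other as much as many members did from 0.

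HOXB4, best known for its part in blood stem cells, had 181 on the control and 204 on the CDR1AS array (0.075). HOXB5, with roles in gut nerve cells and vessels, had 318 and 389 (0.20), and its neighbour HOXB6 had 181 and 224 (0.22). HOXB7, a gene often found raised in carcinomas, had 1083 and 1173 (−0.015) and was 15.7 and 16.3 times the limits. For HOXB7 the arrays were thus nearly equal after normalization. HOXB9 had 191 and 258 (0.35), the highest ratio of the family, or 1.28-fold. In the authors' deposited table its values were 59.4 and 86.4, or 1.45-fold. HOXB8, given here beside its neighbours, was close to the blanks at 84.1 and 93.1 (0.079). Over the 9 genes the median was 0.075, and −0.34 after subtraction of the local background, where 7 of the 9 ratios were below 0 and HOXB7 was past 2-fold (−1.28).

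In HOXC, the cluster of limb, skin and trunk patterning, 6 of 9 ratios were above 0, with a median of 0.083 (−0.026 after subtraction of the local background). HOXC4 had 93.8 on the control and 110 on the CDR1AS array (0.17), HOXC5 had 158 and 179 (0.083), and HOXC6 had 269 and 314 (0.12). Since HOXC4 and HOXC5 begin at the same annotated start, which transcripts each of these probes detects was not tested, and the 3 values may not be separate measurements. HOXC9 had 269 and 248 (−0.24) and HOXC10, a hindlimb gene, had 124 and 113 (−0.25). These are the 2 lowest ratios of the cluster and they belong to neighbouring genes. HOXC13, which controls hair keratin genes, had 114 and 117 (−0.06).

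HOXC8 stands out on the scale of the deposited table and was named after its values were seen. Its spot was 79.7 on the control and 96.7 on the CDR1AS array, or 1.15 and 1.34 times the limits. After normalization its log2 ratio was 0.23, whereas the authors' deposited table had 6.6 and 12.5, a 1.89-fold difference and the largest of the HOX genes there. With the local background subtracted the ratio was −0.03, a change of sign. HOXC12 likewise had 3.0 and 4.6 in the authors' deposited table (1.53-fold) and a normalized log2 ratio of 0.07. The offset of 50 in the normalization compresses folds of such dim probes, while the deposited values divide 2 small differences from the blanks. The remaining dim member of this cluster, HOXC11, was at 89.2 and 101 (0.11).

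HOXD genes, which pattern limbs and the hind end of the gut and genital tract, were mostly dim. HOXD9 had 165 on the control and 170 on the CDR1AS array (−0.06), and the brighter probe of HOXD1 had 157 and 176 (0.07). The other probe of HOXD1 was under the limit on both arrays, at 66.4 and 69.6, so the gene's call rests on 1 of 2 probes. HOXD3 had 102 and 110 (0.02). HOXD9 and HOXD1 were the only members of this cluster at 1.5 times the limit on both arrays.

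Apart from HOXD9, the high-numbered genes of HOXD (HOXD10 to HOXD13) were near the blanks. In the other clusters HOXB9, HOXC9, HOXC10 and HOXC13 were at 1.5 times the limit or more on both arrays, and HOXC11 and HOXC12 were not. HOXD10 had 69.0 (limit 69.1) in the control and 73.6 (limit 72.1) in the CDR1AS sample. Its bound was too close to 1 to give a fold, and its log2 ratio changed sign between settings (0.01 in the main setting, −0.02 with scaling to a common median). HOXD12 had 63.9 and 72.2, so that it passed the CDR1AS limit by the smallest margin of any member, and no fold is given. Its other probe was under both limits (64.8 and 68.9). Both genes counted as above the blanks on the CDR1AS array only, as did 3.37% of all genes. With the limit at 3 SD, 26 genes passed it on the control and 27 on the CDR1AS array (83.1% and 86.0% of all genes). The brighter probe of HOXD11 had 75.9 and 81.4 (0.02), while its other probe was under the limit on the control array (67.1) and over it on the CDR1AS array (75.0).

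HOXD13, a gene of digit and hindgut patterning, was above the blanks with both probes. The brighter had 91.3 on the control and 98.2 on the CDR1AS array (0.02), and the other had 76.8 and 90.9 (0.20), which was 1.88-fold in the authors' deposited table, so its probes differ in the ratio they give. The 8 members for which only ranges were fixed (HOXA2, HOXB8, HOXC8, HOXC11, HOXC12, HOXD4, HOXD8 and HOXD13) had spots of 72.1 to 91.3 on the control array and 74.2 to 101 on the CDR1AS array. Their ratios ran from −0.05 to 0.23, and in the authors' deposited table from −0.49 (HOXD8, 3.1 and 2.2) to 0.92 (HOXC8). HOXD ratios ran from −0.06 to 0.11, a narrower range than in HOXB or HOXC, and 2 of 9 HOXD genes were at 1.5 times the limits or more. The part of dimness in that range was not tested.

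**Figure D3:**
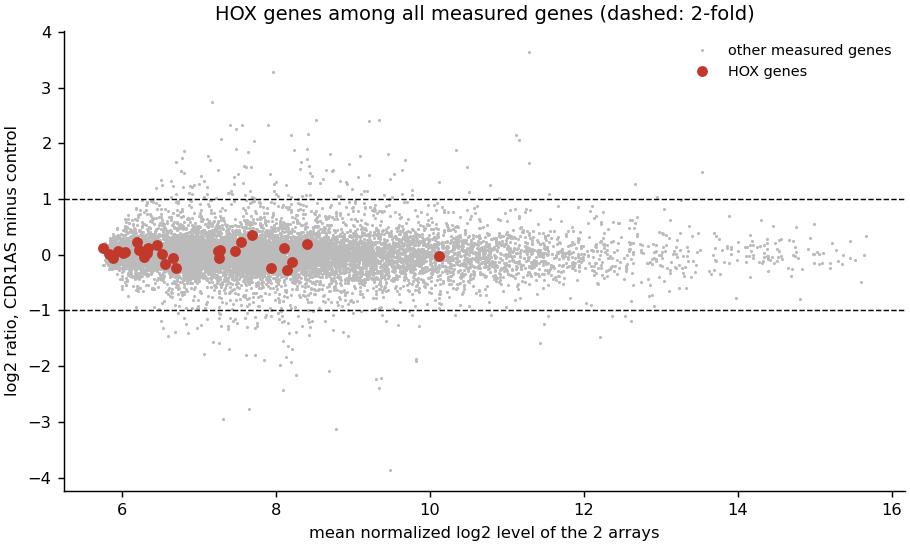
Log2 ratio (CDR1AS minus control) against the mean normalized log2 level of the 2 arrays for 16685 measured genes (grey), with the 28 HOX genes in red and 2-fold as dashed lines. The HOX points lie within the band of other genes of like level and none reaches a dashed line.

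The regulators and partners of HOX genes were described by the same counts. Of all 16685 measured genes 8105 had ratios above 0 and 8569 below, and the splits of the lists were not tested. Of 11 measured TALE cofactors, 5 had ratios above 0 and 6 below, with a median of −0.03 and none past 2-fold. PBX4 had the lowest, with spots of 267 on the control and 184 on the CDR1AS array (−0.69). Of 26 measured Polycomb genes, 15 had ratios over 0 and 11 under it (median 0.085), and of 17 trithorax genes 11 had ratios over 0 and 6 under it (median 0.03). None of these genes was past 2-fold in the main setting, and RING1, which encodes a ubiquitin ligase subunit of Polycomb, was the only Polycomb or trithorax gene at an absolute log2 ratio of 0.5 or more there (−0.56). With the local background subtracted RBBP4 (1.07), MTF2 (1.06), PCGF6 (1.46) and PSIP1 (1.96) were past 2-fold higher and AEBP2 (−1.004), KMT2E (−1.65) and DPY30 (−1.13) past 2-fold lower. In that setting 4.48% of all measured genes were at least 2-fold higher and 3.28% at least 2-fold lower, more than in the main setting. EZH2 and KMT2A, the best known enzymes of either side, were both above the blanks. EZH2 was at 9.4 and 9.2 times the limits, whereas KMT2A was near them, at 1.27 and 1.38 times.

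Of 17 measured retinoic acid genes, 7 had ratios over 0 and 10 under it (median −0.014). Although none was past 2-fold, 5 were at an absolute log2 ratio of 0.5 or more, which 6.57% of all genes were. The retinaldehyde reductase gene DHRS3 had 713 on the control and 462 on the CDR1AS array (−0.76). The retinol dehydrogenase gene RDH10 had 735 and 532 (−0.60). ALDH1A3, which makes retinoic acid, had 145 and 109 (−0.57), CYP26B1, which degrades it, had 107 and 82.3 (−0.54), and the carrier gene CRABP2 had 175 and 270 (0.55). Genes that make and that degrade retinoic acid were thus both among the lower ones. In the authors' deposited table CYP26B1 (19.6 and 5.9, log2 ratio −1.73) and ALDH1A3 (37.7 and 18.0, −1.07) were past 2-fold lower, and NRIP1 (4.2 and 9.2, 1.13) was past 2-fold higher. With the local background subtracted DHRS3 (−1.76) and RDH10 (−1.22) were past 2-fold lower and CRABP2 was at 0.08.

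The ParaHox genes are relatives of HOX genes outside the 4 HOX clusters, and CDX2 is the main factor of intestinal identity. All 6 had spots above the blanks, with a median ratio of −0.04 and 2 above 0. CDX2 had 170 on the control and 109 on the CDR1AS array, a log2 ratio of −0.82 or 1.76-fold lower. In the authors' deposited table its values were 49.8 and 18.2 (log2 ratio −1.45), past 2-fold, whereas the ratio was −0.35 with the local background subtracted. With an offset of 16 in place of 50 in the normalization the ratio of CDX2 was −1.15. CDX1 was close to the blanks at 83.2 and 83.4. No HOX gene had a ratio as low as CDX2 in the main setting. Of 13 other measured homeobox genes near or related to the clusters, 10 were above 0, with a median of 0.03, and DLX1 had 88.0 and 166 (0.94). Of 19 gut regional factors 12 were above 0, with a median of 0.03, and FOXA2, an endoderm factor, had 160 and 250 (0.58). None of these genes was past 2-fold in the main setting, but in the authors' deposited table DLX1 (10.6 and 44.3, log2 ratio 2.06), DLX2 (4.0 and 9.9, 1.31) and EVX1 (1.0 and 2.2, 1.14) were. With the local background subtracted the ratio of DLX1 was 0.19, and with the offset of 16 it was 1.40.

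Transcripts of the HOXA cluster that fall outside the rule were measured as well. The probe annotated to the HOXA10-HOXA9 readthrough gene had 1615 on the control and 1761 on the CDR1AS array (0.06), 23.4 and 24.4 times the limits. Which of the HOXA9, HOXA10 and readthrough transcripts it detects is not known here. The antisense gene HOXA10-AS had 354 and 282 (−0.46), the lowest ratio among these transcripts. HOXA-AS3 had 535 and 528 with its brighter probe (−0.15) and 80.7 and 86.4 with the other (0.02), and HOXA-AS2 had 101 and 103 (−0.06). Of these 5 probes, 3 were at 1.5 times the limits or more on both arrays, and HOXA-AS2 and the other HOXA-AS3 probe were not. With the local background subtracted the readthrough probe had a log2 ratio of 1.99. The brighter HOXA-AS3 probe was at 1.17 there and so changed sign. In that setting 4.48% of all measured genes were at least 2-fold higher.

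The HOX clusters were also set beside the 5 nearest measured protein-coding genes on each side, in the gene order of RefSeq. Over all 40 neighbours the median was 0.03, with 24 above 0 and none past 2-fold in the main setting, but they ranged from −0.77 (HNRNPA1) to 0.80 (CBX5), both beside HOXC. Beside HOXD, 4 of 5 genes on the side of HOXD1 had ratios above 0, MTX2 (0.39), HNRNPA3 (0.77), NFE2L2 (0.36) and AGPS (0.59), with a median of 0.39. The HOXD genes between them and the other side had a median of 0.02, and in the authors' deposited table the medians were 0.48 for those 5 neighbours and 0.11 for HOXD. On the other side 3 of 5 genes had ratios above 0 (median 0.13), from −0.62 for CHRNA1 to 0.78 for CHN1. HNRNPA3 had 946 and 1704 and was far from the blanks, unlike most HOXD genes. HOXD9 and HOXD1, at 2.38 and 2.27 times the limit on the control array, had ratios of −0.06 and 0.07. In the authors' deposited table these were −0.04 and 0.17. The offset in the normalization compresses folds of dim probes, and its part in the HOXD ratios was not tested.

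**Figure D4:**
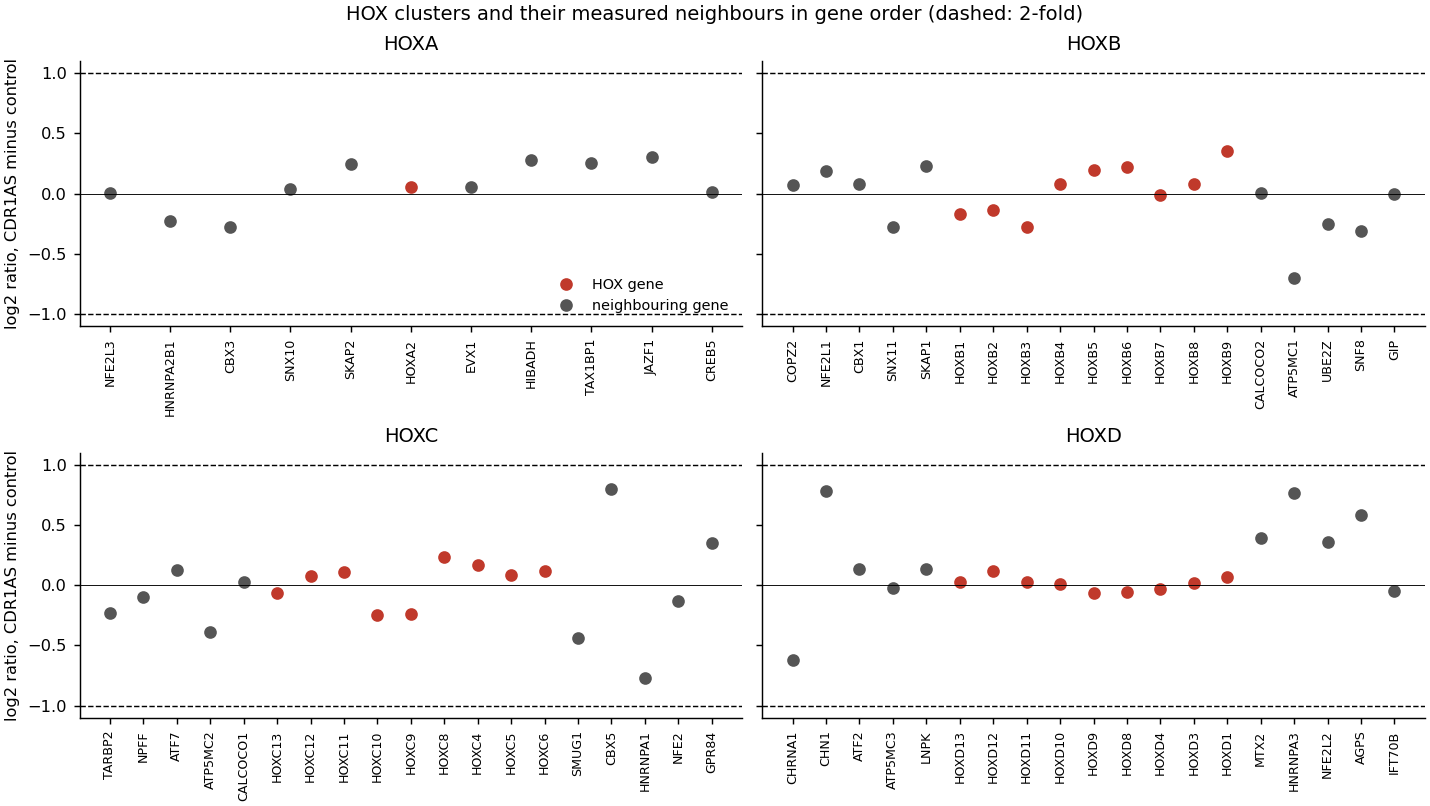
Log2 ratio (CDR1AS minus control) of the HOX genes (red) of each cluster and of the 5 nearest measured protein-coding genes on each side (grey), in gene order and not to distance, with 2-fold as dashed lines. HOX points lie between −0.28 and 0.35 while grey points spread from −0.77 to 0.80, and 4 of the 5 grey points on the HOXD1 side of HOXD lie between 0.36 and 0.77.

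The label of a colon epithelial line was set against marker genes. Of 12 measured colon epithelium markers 10 were above the blanks on both arrays, among them KRT18, EPCAM, VIL1 and CDH1. Of all 18638 genes, 15905 were above the blanks on both arrays. The count of colon markers is close to that share, so it is not read as a result about the label. The intestinal cadherin gene CDH17 was under the limit on the control array (67.9) and CEACAM5 on the CDR1AS array (69.4), and KRT20 was near the limits (82.8 and 92.4), so not every colon marker was clear. Of the 12 colon markers none was past 2-fold in the main setting. At an absolute log2 ratio of 0.5 or more there were 3, CDX2 (−0.82), EPCAM (−0.54) and KRT19 (0.83), beside 6.57% of all measured genes. With the local background subtracted EPCAM (2.13) and KRT19 (2.03) were past 2-fold higher, as were 4.48% of all measured genes. Of 9 fibroblast markers 5 were above the blanks on both arrays, of 6 leukocyte markers 4, and of 6 endothelial markers 3. None of these was past 2-fold in the main setting, and PECAM1 was at 1.21 with the offset of 16. PTPRC, COL1A1 and COL1A2 were not above the blanks on either array. CD79A (4.78 and 5.80 times the limits), DCN (3.41 and 3.37) and LUM (2.71 and 2.25) were above them on both, and PECAM1 was above them on the CDR1AS array only (66.4 and 98.3). The part of any other cell type in the HOX values was not tested.

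Among the HOX genes given by value, subtraction of the local background moved more ratios by over 0.24 than any other setting (9 of 20). The median of the family moved further in the authors' deposited table, to 0.17, where that of all measured genes was 0.037. After the subtraction HOXB7 was lower on the CDR1AS array (−1.28), 1 member past 2-fold where 3.28% of all genes were at least 2-fold lower, and 0 members were at least 2-fold higher, where 4.48% of all genes were. HOXC9 (−0.89), HOXB2 (−0.62), HOXB6 (−0.60), HOXC6 (−0.58), HOXD9 (−0.53), HOXB4 (−0.37) and HOXB5 (−0.34) moved in the same direction, HOXB3 moved the other way (−0.02), and HOXB9 had nearly its main value (0.34). HOXB4, HOXB5, HOXB6 and HOXC6 thereby changed sign. In the authors' deposited table, which holds intensities over the blank level, the values of HOXB7 were 484.5 and 505.1, and 0 of 27 HOX genes with a value on both arrays were past 2-fold, beside 3.35% of genes higher and 2.27% lower there.

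**Figure D5:**
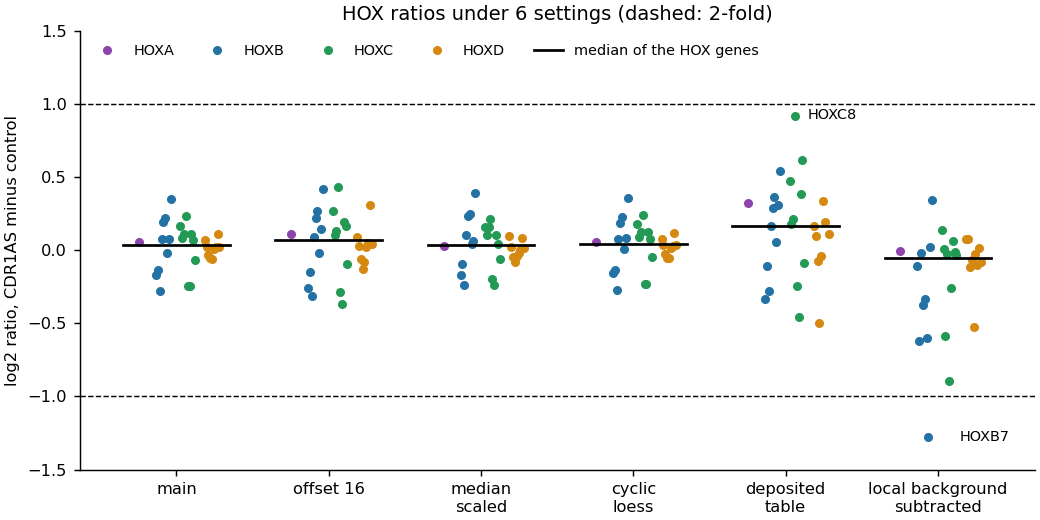
Log2 ratio (CDR1AS minus control) of each HOX gene under 6 settings, coloured by cluster, with the median as a black bar and 2-fold as dashed lines. In the first 4 settings all points lie within 0.44 of 0, HOXC8 is highest in the deposited table (0.92) and HOXB7 is the only point past a dashed line, after subtraction of the local background (−1.28).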

How the data were processed

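Single-colour array data of 2 samples were used, 1 per group. Per the file headers, the deposited intensity of a spot is a median at 635 nm, read at 3 scanner gains, with a median of its surroundings as local background. The sources used here do not give how the gains were joined, the scanner software or the build of the probe design. The deposited value table, whose making no source used here states, fitted a straight line of each array's intensity (largest residual 0.051 and 0.0559 units), reaching 0 at 65.8 and 69.4, close to the blank means of 65.9 and 69.5, with a median of 25 on both arrays.

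A quality flag removed 1 of 24460 gene probes. Intensities without the local background were corrected with limma 3.58.1 in R 4.3.3 (normexp on all spots but empty positions, offset 50), quantile normalized over the gene probes and put on the log2 scale, so the number of arrays limits the precision. A gene was read by its brightest probe. Genes were assigned by GEO's platform annotation, and all 28 HOX genes matched RefSeq by gene identifier. Values were fixed to be given for HOX genes at 1.5 times the limit on either array, above the blanks on 1 array only, at an absolute log2 ratio of 0.5, or with probes that disagree about the blanks, and ranges for the others. Of the other lists, members past 2-fold were to be named, and those named here were chosen after their values were seen. Members and lists were chosen with earlier results of these data known. Of these steps only the normalization was tested on simulated data, with changes planted only in probes well above the blanks. Changes in dim probes, the limit of the blanks and the reading by the brightest probe were not simulated. The alternatives are in the closing section.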

Additional observations from a re-analysis of the deposited data

How the results depend on the processing

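The count of HOX genes above the blanks was 24 to 27 on the control array and 26 to 28 on the CDR1AS array over a limit of 3 SD, the brightest blank, every probe of a gene, the deposited table and, chosen after seeing the data, the 95th percentile of the negative controls. The median log2 ratio was −0.05 with the local background subtracted, 0.17 in the deposited table and 0.04 to 0.07 in the other alternatives. Over all measured genes it was −0.0164 with the local background subtracted and 0.037 in the deposited table. Subtracting the local background gave 1 gene at least 2-fold lower (HOXB7), and every other alternative run gave 0. The count higher was 0 in each of them. The cause was not tested. Of 20 genes given by value, 9 moved by more than 0.24 after that subtraction, and HOXC4 (0.47) and HOXD10 (0.34) in the deposited table. Dim probes limit what could be seen, since 12 of 28 HOX genes were at 2 times the limit on both arrays. That is close to the share of all genes (7396 of 18638), so it is not particular to HOX genes. No paired analysis was possible because each group was 1 array.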
